A study of Mus musculus with 6 samples.

Results

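Integrins and adhesion molecules were examined in 3 control Treg (ctrl-Treg) and 3 sorafenib-treated Treg (Sora-Treg) RNA-seq libraries. The 34 members, of 22939 genes in the count table, were every integrin α or β subunit gene in it plus Icam1, Icam2, Vcam1, Pecam1, Selplg, Cd44, Cd47, Tln1 and Fermt3. Itgb2l and genes named for integrin-binding or integrin-like proteins were left out. The members were taken by gene name, not by level, and the set was proposed with earlier results of these data known. Sorafenib (Sora) is a multikinase inhibitor of RAF, VEGFR and PDGFR family kinases that is given in hepatocellular carcinoma. In both groups, naive CD4+ T cells of Foxp3-GFP knock-in C57BL/6J mice, which carry GFP in the Foxp3 locus, were stimulated through CD3 and CD28 with TGF-β1 and with IFN-γ and IL-4 blocked, and GFP+ cells were then sorted. The Sora-Treg cultures also received Sora from the start. The model thus consists of Treg cells induced in culture and not of Treg cells from tumors. The labels give no age, dose or day for these libraries and do not say whether replicates came from separate mice or cultures, so the p-values measure only the spread between these libraries.

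Integrins are paired receptors made of an α and a β chain, and each pair binds its own set of matrix proteins or cell surface ligands. On T cells, αLβ2 (LFA-1) binds ICAMs on antigen-presenting cells and endothelium, α4β1 (VLA-4) binds VCAM-1, and α4β7 and αEβ7 serve gut homing and retention in epithelium. The αv pairs can release active TGF-β from its latent complex. Talin and kindlin bind β chain tails inside the cell and switch the receptors to the high-affinity state, and P-selectin glycoprotein ligand 1 and CD44 mediate the rolling that comes before firm adhesion.

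Total counts ranged from 30727686 to 37717324 per library. As a mark of counting error alone, 3 counts equalled 0.0795 to 0.0976 CPM (the count relative to the library's total). This mark was not used as a cutoff. Members took between 0.404% and 0.408% of all counts in the ctrl-Treg libraries and between 0.471% and 0.475% in the Sora-Treg libraries. Of 6 Treg marker genes 5 were higher in Sora-Treg cells (summed level 3178 to 3222 CPM against 5974 to 6121 CPM), where 29.7% of all tested genes were higher. Most of that sum was Il2ra (1911 to 1971 CPM against 3737 to 3844 CPM). Foxp3 was called higher by only 0.07 on the log2 scale, with overlap (252 to 269 CPM against 268 to 278 CPM), and Ikzf2 did not pass. All 5 T cell markers were also higher (1338 to 1362 CPM against 1919 to 1952 CPM), Cd4 by only 0.06 on the log2 scale. Ctrl-Treg libraries 1 and 2 stood apart in transcripts of myeloid cells. The summed level of 10 myeloid markers was 104 CPM in each of them, 26.9 CPM in ctrl-Treg library 3 and 23.1, 46.7 and 23.0 CPM in Sora-Treg libraries 1 to 3. Leaving out ctrl-Treg libraries 1 and 2 keeps ctrl-Treg library 3 alone in its group, so only effect sizes are given for that fit. Among the 28 tested members other than Itgam and Itgb4, the log2 fold change then moved by at most 0.27. Itgam went from -1.55 to 0.72 and Itgb4 from -0.05 to 0.44. An exact permutation test with 3 libraries a group can reach 0.1 at the lowest, so all tests below are from edgeR models fitted across all genes.

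Of the 34 members, 28 were expressed highly enough to be tested (filterByExpr of edgeR). At an edgeR adjusted p under 0.05, 15 were higher and 6 lower in Sora-Treg cells, and 7 did not pass. These 21 calls are 75% of the tested members, where 59.6% of all 13463 tested genes were called in either direction, 29.7% higher and 29.9% lower. Changes over 2-fold were found upward in 5 members (Itga7, Itga3, Pecam1, Itgb3 and Itgb5), against 6.30% of all genes, and downward in 2 (Vcam1 and Itgam), against 4.97%. Vcam1 passed the filter through the ctrl-Treg libraries alone, so its place in these counts supports nothing. Levels did not overlap between the groups in 20 members, against 63.7% of all genes. The median log2 fold change was 0.20 over the tested members and -0.0035 over all genes. Levels below are CPM scaled by TMM (a factor that equalizes the bulk of genes between libraries) unless FPKM, which is also divided by gene length, is named. Scaling by library totals alone moves the median of all genes by -0.12 on the log2 scale, and among the members it turns the sign of Tln1 only.

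**Figure D1:**
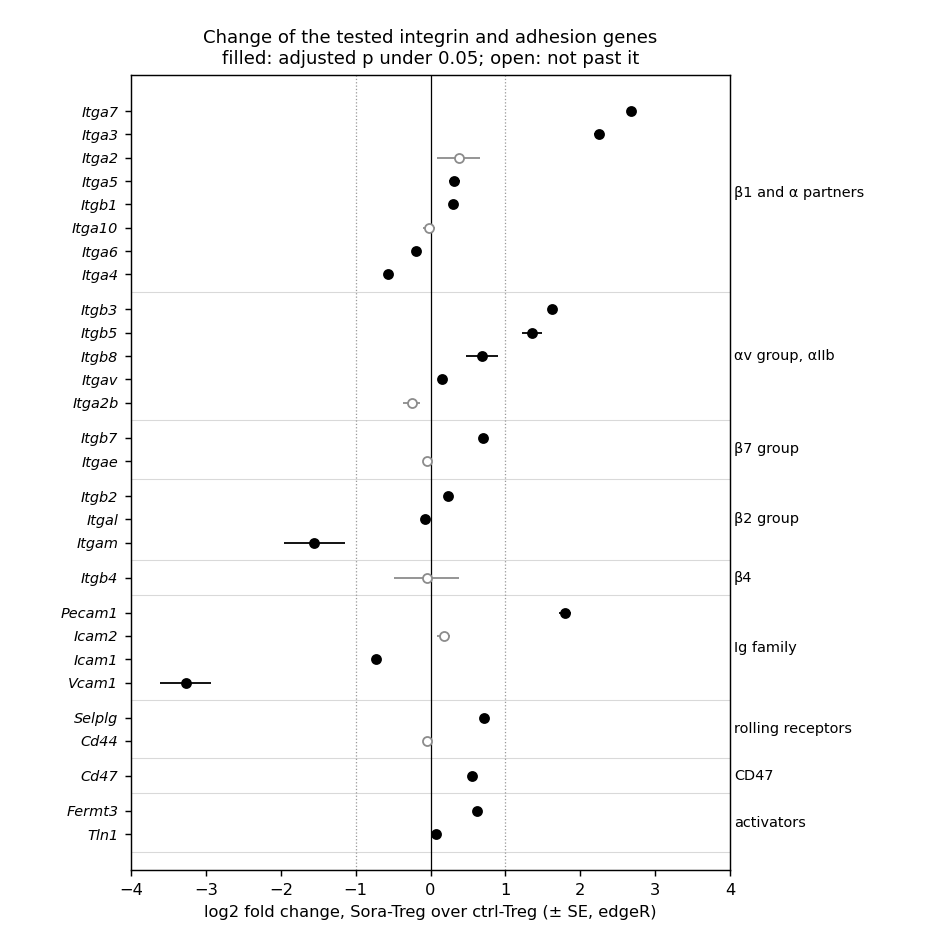
The horizontal axis is the log2 fold change of Sora-Treg over ctrl-Treg cells with its SE for the 28 tested members, grouped by role, and dotted lines mark 2-fold. Filled points passed an adjusted p of 0.05, with Itga7 highest at 2.68 and Vcam1, tested only through its ctrl-Treg level, at -3.27.

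The integrin genes with the largest increases were Itga7 and Itga3, both α chains of laminin receptors. Itga7 encodes α7, which pairs with β1 and is best known as a laminin receptor of muscle. Its level was 43.3, 40.6 and 40.7 CPM in ctrl-Treg libraries, against 269, 266 and 262 CPM with Sora. The groups were far apart and each was tight, and Itga7 was 6.39-fold higher (log2 fold change 2.68 with SE 0.04, adjusted p = 3.12e-24 by edgeR). Itga3, whose product also pairs with β1 to bind laminins, was at 10.7, 10.03 and 9.71 CPM in ctrl-Treg libraries, against 49.6, 45.05 and 50.3 CPM with Sora. Every Sora-Treg library was thus above every ctrl-Treg library, with a log2 fold change of 2.25 (SE 0.07, adjusted p = 5.63e-18 by edgeR). The genes lie at chr10:128933421-128958286 (Itga7) and chr11:95044475-95076844 (Itga3) on GRCm38.

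Other subunits of the β1 group moved less and in both directions. Itgb1, the shared β chain, was at 234, 236 and 228 CPM in ctrl-Treg libraries, against 281, 296 and 281 CPM with Sora. It rose by 0.30 on the log2 scale (SE 0.03, adjusted p = 1.45e-08 by edgeR), without overlap. Itga4, Itga5, Itga6, Icam2 and Itgb4 fall outside the rule for naming genes and were chosen after their values were seen. Itga4, the α4 chain of VLA-4 and of the gut-homing receptor α4β7, stood at 84.7, 87.6 and 90.3 CPM in ctrl-Treg libraries, against 54.1, 60.2 and 61.9 CPM with Sora. All 3 Sora-Treg libraries were below the ctrl-Treg range, and the log2 fold change was -0.57 (SE 0.05, adjusted p = 3.64e-10 by edgeR). Itga5, the fibronectin receptor chain, was higher by 0.31 and Itga6, the α6 laminin receptor chain, lower (log2 fold change -0.19), with edgeR adjusted p values of 0.000920 and 0.000440.

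Itga2 and Itga10, chains of collagen receptors in the same group, did not pass. Itga2 was at 1.40, 1.07 and 1.66 CPM in ctrl-Treg libraries, against 2.27, 1.13 and 1.94 CPM with Sora, which overlap (log2 fold change 0.37 with SE 0.29, adjusted p = 0.282 by edgeR). Itga10 ranged from 13.8 to 16.2 CPM in ctrl-Treg and from 13.8 to 15.1 CPM in Sora-Treg libraries, also overlapping (log2 fold change -0.02 with SE 0.08, adjusted p = 0.853 by edgeR). Itga1, Itga11 and Itga9 were below the filter, with at most 6, 4 and 12 counts in any library.

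Of the β chains that pair with αv, Itgb3, Itgb5 and Itgb8 rose. Itgb3, the β3 chain of the vitronectin receptor, was at 19.5, 18.1 and 19.1 CPM in ctrl-Treg libraries, against 56.5, 58.5 and 59.3 CPM with Sora. The groups were separated by a wide gap, and the log2 fold change was 1.62 (SE 0.05, adjusted p = 2.38e-17 by edgeR). Itgb5, which encodes β5, was at 3.28, 3.24 and 2.91 CPM against 8.96, 8.06 and 7.16 CPM, a log2 fold change of 1.35 (SE 0.14, adjusted p = 1.38e-08 by edgeR) with no overlap. Itgb8 encodes β8, which with αv activates latent TGF-β held by GARP on Treg cells. It was lowly expressed, at 2.01, 2.78 and 1.88 CPM in ctrl-Treg libraries, against 2.74, 3.89 and 4.07 CPM with Sora. One Sora-Treg library lay inside the ctrl-Treg range, and the log2 fold change of 0.68 (SE 0.21, adjusted p = 0.00760 by edgeR) lost its call without Sora-Treg library 3 (log2 fold change 0.58, adjusted p = 0.0508).

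Itgav itself, the αv chain shared by these pairs, changed little. It was at 141, 142 and 141 CPM in ctrl-Treg libraries, against 147, 166 and 157 CPM with Sora. The groups did not overlap, and the log2 fold change was 0.15 (SE 0.04, adjusted p = 0.00207 by edgeR), a call that was lost when libraries were scaled by their totals (log2 fold change 0.03). Itga2b, the αIIb chain that pairs with β3 on platelets, was at 8.41, 8.02 and 8.83 CPM and at 8.14, 6.05 and 6.995 CPM, which overlap (log2 fold change -0.25 with SE 0.12, adjusted p = 0.0675 by edgeR). It passed as lower without Sora-Treg library 1 (log2 fold change -0.36, adjusted p = 0.0159). The 4 platelet markers together reached at most 0.406 CPM in any library, and Itgb6 had at most 1 count.

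**Figure D2:**
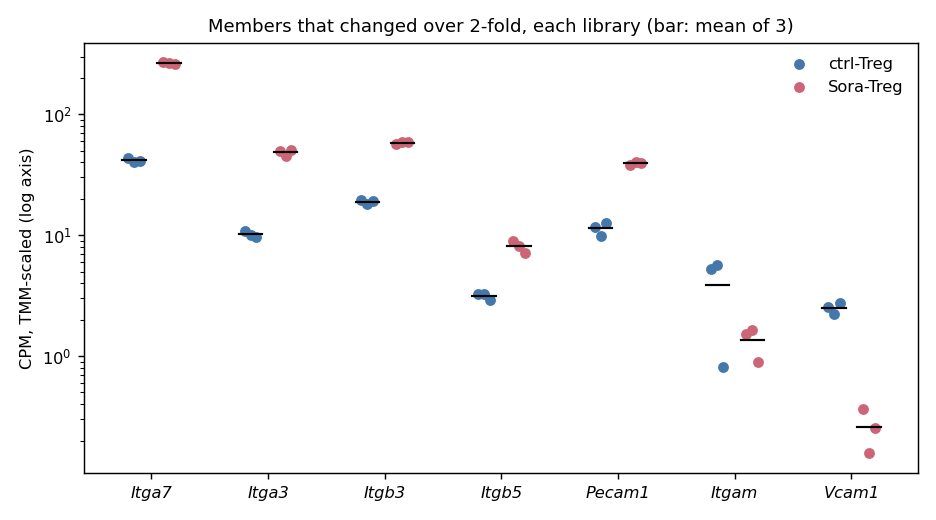
Each point is the TMM-scaled CPM of 1 library on a log axis, with a bar at the mean of 3, for the 7 members that changed over 2-fold. The groups are apart in 6 of them, and in Itgam ctrl-Treg library 3 (0.814 CPM) lies below all 3 Sora-Treg libraries.

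In the β7 pairs, the β chain rose, while of its α partners Itga4 fell (above) and Itgae did not pass. Itgb7 was at 291, 303 and 299 CPM in ctrl-Treg libraries, against 487, 476 and 485 CPM with Sora. It rose by 0.70 on the log2 scale in 3 of 3 libraries (SE 0.03, adjusted p = 4.83e-16 by edgeR). Itgae, which encodes αE (CD103), an integrin chain that TGF-β induces in T cells, was at 54.3, 51.2 and 54.4 CPM and at 50.4, 50.9 and 54.0 CPM. Those values overlap, with a log2 fold change of -0.04 (SE 0.05, adjusted p = 0.456 by edgeR). The FPKM of Itgb7 over the sum of Itgae and Itga4 was 2.65 ± 0.105 in ctrl-Treg cells, against 4.93 ± 0.222 with Sora (SD, n = 3).

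The leukocyte integrin LFA-1 was the most abundant by transcript. Itgb2, the β2 chain, stood at 634, 634 and 635 CPM in ctrl-Treg libraries, against 765, 725 and 743 CPM with Sora, and rose by 0.23 on the log2 scale (SE 0.03, adjusted p = 4.84e-08 by edgeR). Itgal, the αL chain, was at 609, 622 and 617 CPM against 581, 584 and 590 CPM. It was lower in every Sora-Treg library, by a small margin (log2 fold change -0.07 with SE 0.02, adjusted p = 0.0117 by edgeR). Without ctrl-Treg libraries 1 and 2 its log2 fold change was -0.08. The FPKM ratio of Itgb2 to Itgal went from 1.88 ± 0.0208 to 2.32 ± 0.0707 (SD, n = 3), with no overlap.

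Itgam, the αM chain (CD11b) of macrophages and neutrophils, was at 5.21 and 5.63 CPM in ctrl-Treg libraries 1 and 2, at 0.814 CPM in ctrl-Treg library 3, and at 1.52, 1.63 and 0.899 CPM with Sora. The high values were in the 2 libraries with more myeloid transcripts, and the groups overlapped. The log2 fold change of -1.55 (SE 0.41, adjusted p = 0.00239 by edgeR) turned to 0.72 when those libraries were left out, which keeps only ctrl-Treg library 3. DESeq2 did not call Itgam (adjusted p = 0.109), and neither did robust fitting (adjusted p = 0.179 by edgeR). Apart from the fit on ctrl-Treg library 3, its adjusted p ranged from 1.53e-12 to 0.179 over the alternatives. Without ctrl-Treg library 3 alone its log2 fold change was -2.02. Of the 10 myeloid markers 9 were tested, and none was at 0 in all libraries. Of these, 6 were lower (among them Cd14, over the filter's minimum in 1 Sora-Treg library) and 0 higher, where 29.9% of all tested genes were lower. Fcgr3, C1qa and Cd68 did not pass. Cd68 did not follow most of the others, at 9.14, 9.70 and 6.61 CPM in ctrl-Treg libraries, against 9.39, 10.2 and 9.72 CPM with Sora. C1qa was higher in Sora-Treg library 2 (0.784 CPM) than in ctrl-Treg library 2 (0.742 CPM). Ly6c2, not tested, was at 0.0508 CPM in ctrl-Treg library 1 and at 0.0989 CPM in Sora-Treg library 1. The part of the myeloid markers in the change of Itgam was not tested. In bulk RNA, fewer cells of a type and less RNA per cell cannot be told apart. The other β2 partners Itgax (at most 8 counts) and Itgad (at most 1 count) were below the filter.

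**Figure D3:**
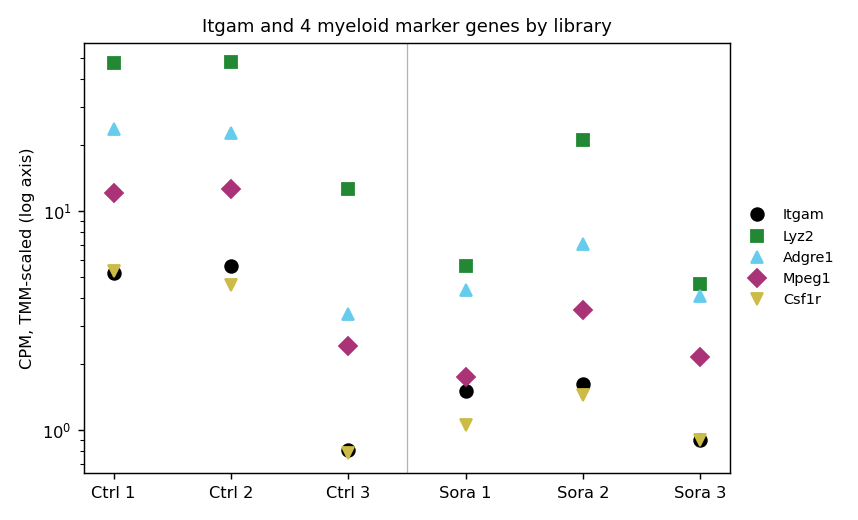
The TMM-scaled CPM of Itgam and of the myeloid markers Lyz2, Adgre1, Mpeg1 and Csf1r is shown for each library on a log axis. In ctrl-Treg libraries 1 and 2 all 5 genes lie above their level in the other 4 libraries. Cd68, C1qa and Ly6c2, others of the 10 listed myeloid markers, are not shown and did not follow this pattern.

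The make-up of integrin transcripts per gene length differed between the groups. Summed over all α genes, FPKM was 185 ± 0.264 in ctrl-Treg cells, against 199 ± 1.26 with Sora (SD, n = 3), and summed over all β genes it was 338 ± 1.07 and 399 ± 6.24. Itga7 made up 3.22% ± 0.133 of the α sum in ctrl-Treg cells, against 17.6% ± 0.341 with Sora. Itgal went from 64.0% ± 0.504 to 52.0% ± 0.154 of it, and Itga3 from 1.08% ± 0.0589 to 4.38% ± 0.241, each without overlap between groups. Among β genes, Itgb2 went from 65.5% ± 0.316 to 60.2% ± 0.773 and Itgb7 from 16.0% ± 0.287 to 20.4% ± 0.157. A share can fall because other genes rise. Itgb2 itself rose (log2 fold change 0.23), and Itgal was lower by a small margin only (log2 fold change -0.07). The FPKM of Itgb1 over the sum of its α partners was 1.17 ± 0.0355 in ctrl-Treg cells, against 0.808 ± 0.0262 with Sora. That sum held the members from Itga1 to Itga11 except Itga2b, and Itgav. Of these, Itgav and Itga4 also pair with other β chains. The FPKM of Itgb3 over Itgav was 0.228 ± 0.00907 in ctrl-Treg cells, against 0.635 ± 0.0300 with Sora. Transcript ratios are not ratios of receptor protein at the surface.

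**Figure D4:**
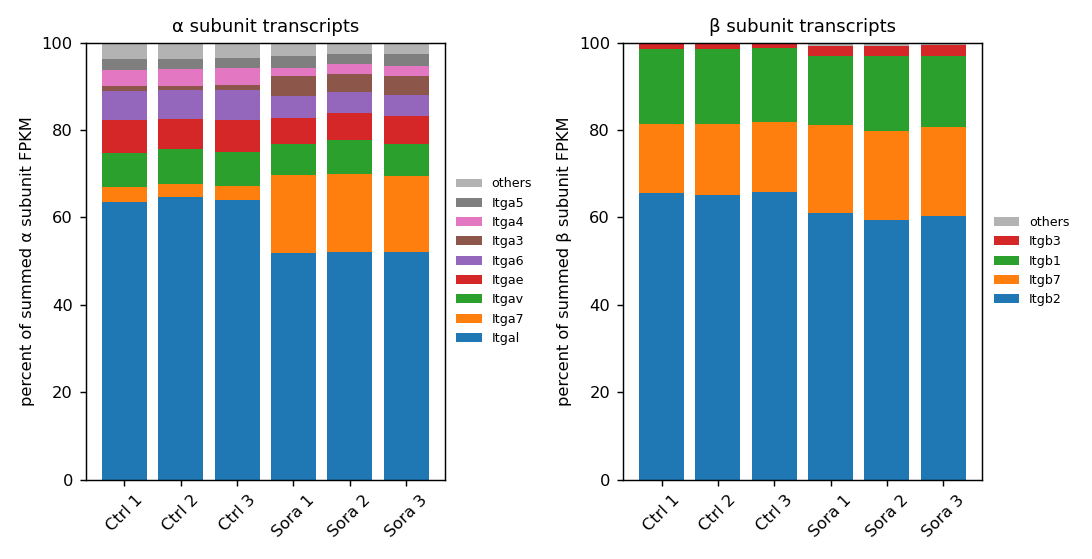
Stacked bars give the percent of summed α (left) or β (right) subunit FPKM that each gene made up in each library. Itga7 is near 3% in the ctrl-Treg and between 17.3% and 17.9% in the Sora-Treg libraries, and Itgb2 remains the largest β share in all 6.

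The adhesion ligands of the immunoglobulin family moved in both directions. Vcam1, the ligand of VLA-4 on activated endothelium and some antigen-presenting cells, had 100, 81 and 87 counts in ctrl-Treg libraries, against 11, 5 and 9 with Sora. That was 2.54, 2.23 and 2.72 CPM against 0.362, 0.157 and 0.253 CPM, without overlap. Vcam1 reached the filter's minimum in 3 ctrl-Treg libraries and in 1 Sora-Treg library, so it was tested only because its ctrl-Treg level is high. Its log2 fold change of -3.27 (SE 0.34) is given as a description, without a p, and it was -3.39 without ctrl-Treg libraries 1 and 2. Icam1, a ligand of LFA-1 that NF-κB induces on activation, was at 136, 140 and 138 CPM in ctrl-Treg libraries, against 83.4, 76.3 and 90.1 CPM with Sora. All 3 values fell below the ctrl-Treg range (log2 fold change -0.73 with SE 0.05, adjusted p = 2.69e-12 by edgeR).

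Markers of other cells also moved with these ligands. The 3 dendritic cell markers in the table summed to between 15.3 and 17.0 CPM in ctrl-Treg and between 4.23 and 4.83 CPM in Sora-Treg libraries. Both tested genes (Zbtb46 and Flt3) were lower, where 29.9% of all tested genes were lower. Nearly all of that sum was Zbtb46 (14.4 to 16.1 CPM against 3.76 to 4.61 CPM). Flt3 passed the filter's minimum in only 1 Sora-Treg library (7, 13 and 8 counts), and so was tested through the ctrl-Treg group. Of 5 B cell markers, 4 were tested and all 4 were lower (summed level 9.71 to 10.7 CPM against 6.09 to 7.68 CPM), of which 3 reached the filter's minimum in ctrl-Treg libraries only. Most of the B cell sum was Cd79b (8.17 to 8.64 CPM against 5.83 to 7.38 CPM, log2 fold change -0.35). In neither list was a gene at 0 in all libraries, and their part in the change of Vcam1 and Icam1 was not tested.

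Pecam1 (CD31), an adhesion receptor of endothelium, platelets and some T cells, rose. It was at 11.6, 9.92 and 12.6 CPM in ctrl-Treg libraries, against 38.0, 40.4 and 39.8 CPM with Sora, a log2 fold change of 1.80 (SE 0.08, adjusted p = 2.74e-15 by edgeR) with no overlap. The endothelial markers Cdh5, Kdr, Tek and Vwf were below the filter in these libraries, and Egfl7 did not pass (log2 fold change 0.28, adjusted p = 0.192). Icam2, another LFA-1 ligand, was at 10.1 to 12.03 CPM against 12.4 to 13.3 CPM, which do not overlap, and did not pass (log2 fold change 0.17 with SE 0.09, adjusted p = 0.110 by edgeR). Itgb4, whose product pairs with α6 in epithelial hemidesmosomes, was between 0.314 and 0.815 CPM in all libraries (log2 fold change -0.05 with SE 0.43, adjusted p = 0.924 by edgeR).

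Of the rolling receptors, Selplg rose and Cd44 did not pass. Selplg, which encodes the ligand of P-selectin, was at 332, 334 and 322 CPM in ctrl-Treg libraries, against 545, 535 and 541 CPM with Sora, a log2 fold change of 0.71 (SE 0.03, adjusted p = 2.01e-16 by edgeR). Cd44, a hyaluronan receptor and activation marker, was at 220, 212 and 223 CPM against 207, 215 and 213 CPM, with overlap (log2 fold change -0.04 with SE 0.03, adjusted p = 0.230 by edgeR). Cd47, the integrin-associated protein that signals to SIRPα on phagocytes, was higher in all 3 Sora-Treg libraries. Its values were 279, 275 and 276 CPM and 396, 415 and 405 CPM (log2 fold change 0.55 with SE 0.03, adjusted p = 5.21e-14 by edgeR).

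Both cytoplasmic activators were called, by unequal amounts. Fermt3 encodes kindlin-3, the kindlin of blood cells, and was at 185, 179 and 179 CPM in ctrl-Treg libraries, against 281, 275 and 281 CPM with Sora. It rose by 0.63 on the log2 scale (SE 0.03, adjusted p = 1.81e-14 by edgeR), with no overlap. Tln1, which encodes talin-1, was at 479, 486 and 466 CPM against 500, 498 and 500 CPM. Its log2 fold change of 0.07 (SE 0.03, adjusted p = 0.0301 by edgeR) was lost without ctrl-Treg library 1 (0.07), ctrl-Treg library 3 (0.05) or Sora-Treg library 3 (0.07) and turned to -0.05 with scaling by library totals. Tln1 shares 360 bases of exon with Creb3 on the opposite strand (735 to 1076 counts), Fermt3 shares 89 with Trpt1 (102 to 151 counts) and Itga4 shares 1124 with Cerkl (12 to 44 counts). Itgb4 shares 537 with B230344G16Rik on the opposite strand, which had 38 to 83 counts where Itgb4 had at most 31. Reads of such pairs could not be told apart if counting ignored strand. On the same strand, Itgam shares 3450 bases of exon with Gm49368 and Itga10 shares 1739 with Gm42957, which strand would not separate, and neither of these partners had a row in the counts used here.

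RefSeq promoter sequences (GRCm38.p6) were matched by symbol for 22 of the 34 members, and Itga7, Itgb3, Pecam1 and Vcam1 had no entry. The 250 bases upstream of the start are shown for 2 members that fell and 2 that rose, so that the letters behind the motif counts can be read. Capitals mark a match on either strand to a κB pattern (GGNNNTTCC), a RUNX core (TGTGGT), an AP-1 site (TGANTCA) or an ETS site (CCGGAAG), none of which overlap here. Their positions are chr9:21015690-21015939, plus strand (Icam1), chr2:79255176-79255425, plus strand (Itga4), chr19:7019470-7019719, minus strand (Fermt3) and chr16:33829415-33829664, plus strand (Itgb5).
Icam1: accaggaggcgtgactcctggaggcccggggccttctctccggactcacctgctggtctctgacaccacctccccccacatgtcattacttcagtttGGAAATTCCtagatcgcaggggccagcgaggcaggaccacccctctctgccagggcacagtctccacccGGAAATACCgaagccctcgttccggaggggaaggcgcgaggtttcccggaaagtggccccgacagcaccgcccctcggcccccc
Itga4: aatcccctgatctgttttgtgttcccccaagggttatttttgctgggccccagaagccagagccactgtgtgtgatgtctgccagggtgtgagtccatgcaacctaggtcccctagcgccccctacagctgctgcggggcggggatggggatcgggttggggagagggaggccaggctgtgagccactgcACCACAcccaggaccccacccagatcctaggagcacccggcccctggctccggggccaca
Fermt3: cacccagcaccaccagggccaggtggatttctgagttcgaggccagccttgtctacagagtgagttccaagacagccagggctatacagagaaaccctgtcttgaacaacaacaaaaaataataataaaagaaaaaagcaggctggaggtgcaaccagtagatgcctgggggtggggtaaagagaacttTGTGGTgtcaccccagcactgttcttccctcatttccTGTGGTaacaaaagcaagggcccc
Itgb5: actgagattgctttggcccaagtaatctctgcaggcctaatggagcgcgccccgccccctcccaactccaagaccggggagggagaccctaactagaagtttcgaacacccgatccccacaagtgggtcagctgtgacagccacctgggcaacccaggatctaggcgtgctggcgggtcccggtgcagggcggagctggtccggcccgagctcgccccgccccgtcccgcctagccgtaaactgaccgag
Icam1 held 2 κB matches, at 153 and 84 bases before the start, where 15.7% of 32851 mouse promoters of this length hold at least 1. Single κB matches were also found in Itga5 (137 bases before the start) and Itgb1 (164 bases), which were both higher in Sora-Treg cells. Itga4 held 1 RUNX match, on the reverse strand, and Fermt3 held 2, with 1 more in an entry of Itga3, where 14.0% of promoters hold at least 1. The AP-1 and ETS letters are in 6.75% and 6.91% of promoters and in none of these 4 (an ETS match was in Cd47 and Itga3 and an AP-1 match in Itgax), and Itgb5 held none of the 4 patterns. A match is a description of letters and shows no binding.

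To set the members beside the genes they work with, 88 partner genes in 5 lists were followed, of which 74 were tested. At an edgeR adjusted p under 0.05, 31 were higher and 24 lower, and 19 did not pass, a called share of 74.3%, against 59.6% of all tested genes (29.7% higher and 29.9% lower). Esam, Icam5 and Col4a1 passed the filter through the ctrl-Treg libraries alone, so their place in these counts supports nothing. The median log2 fold change of the tested partners was 0.12, against -0.0035 over all genes.

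**Figure D5:**
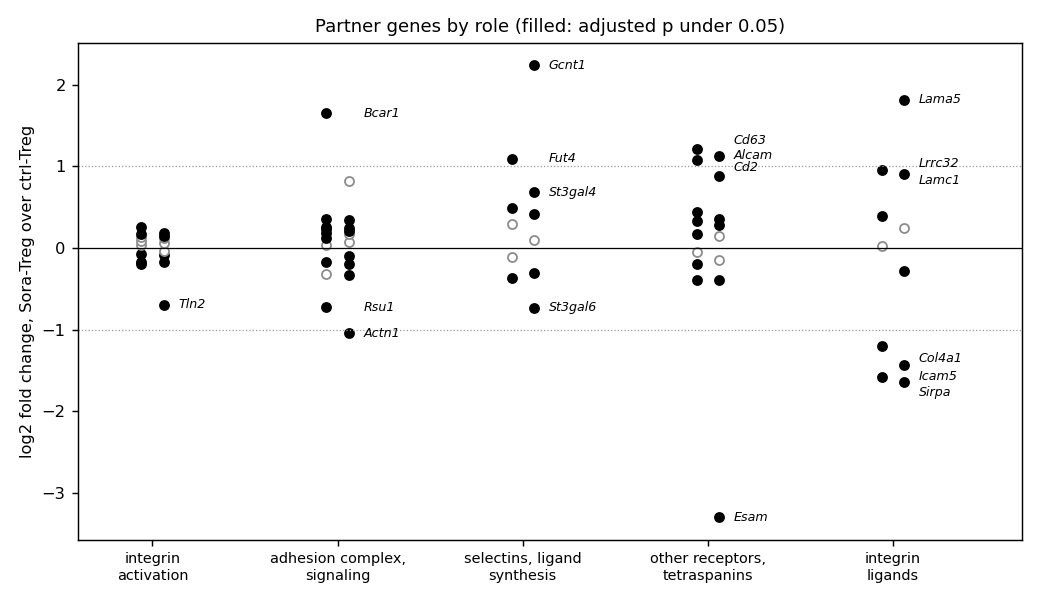
Each point is the log2 fold change of 1 tested partner gene, in 5 columns by role, with filled points past an adjusted p of 0.05 and dotted lines at 2-fold. Integrin activation genes lie between -0.70 and 0.26, while the other 4 lists hold genes beyond 2-fold, up to Gcnt1 at 2.24, and Esam (-3.30), Icam5 and Col4a1 were tested only through their ctrl-Treg level.

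The genes listed under integrin activation, which include but are not limited to relays of T cell receptor and Rap1 signals, were called about as often as all genes. Of 16 tested, 4 were higher and 6 lower (62.5% called, against 59.6% of all genes), with a median log2 fold change of 0.05. Rasgrp1, which activates Ras and Rap, rose by 0.26, the Rap1 effector Apbb1ip (RIAM) by 0.18 and the adapter Skap1 by 0.17 on the log2 scale. Lower were Tln2 (talin-2, log2 fold change -0.70, at 1.96 ± 0.117 CPM in Sora-Treg cells), the Rap1 effector Rassf5 (RAPL, -0.20) and the Rap1 exchange factor Rapgef1 (-0.18).

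In the adhesion complex below the receptor, 9 of 20 tested genes were higher and 6 lower (75% called, against 59.6% of all genes). Bcar1 (p130Cas), a scaffold phosphorylated on integrin engagement, was at 11.4, 9.84 and 9.39 CPM in ctrl-Treg libraries, against 33.3, 31.7 and 31.3 CPM with Sora. It was higher in 3 of 3 (log2 fold change 1.65 with SE 0.08, adjusted p = 2.11e-14 by edgeR). Vav1 and Src, a Rac exchange factor and a tyrosine kinase, rose by 0.35 and 0.34. Actn1, the actin crosslinker α-actinin-1, was at 169, 161 and 166 CPM against 81.5, 74.8 and 84.1 CPM, a fall below the ctrl-Treg range (log2 fold change -1.05 with SE 0.04, adjusted p = 4.25e-16 by edgeR). Rsu1, which binds the PINCH adapter, and the focal adhesion kinase gene Ptk2 were also lower, with log2 fold changes of -0.72 and -0.33.

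Selectin ligands depend on glycosyltransferases, and 5 of 11 tested genes of this list were higher and 3 lower (72.7% called, against 59.6% of all genes). Gcnt1, the core 2 branching enzyme that makes PSGL-1 able to bind P-selectin, had 26, 37 and 46 counts in ctrl-Treg libraries, against 153, 151 and 169 with Sora (log2 fold change 2.24 with SE 0.23, adjusted p = 1.68e-08 by edgeR). Fut4 and St3gal4, a fucosyl- and a sialyltransferase of the same sugars, rose by 1.09 and 0.69. Mean levels of Fut4 were low, at 1.51 CPM in ctrl-Treg and 3.24 CPM in Sora-Treg cells. Fut7, another fucosyltransferase gene of the list, falls outside the rule for naming genes. It was at 7.80 against 7.26 CPM and did not pass (log2 fold change -0.11, adjusted p = 0.506 by edgeR). The sialyltransferase gene St3gal6 (log2 fold change -0.73) and the tyrosine sulfotransferase gene Tpst1 (-0.31) were lower. The call of St3gal6 was lost without Sora-Treg library 2 (log2 fold change -0.57) or 3 (-0.69), and that of Tpst1 without ctrl-Treg library 1 (-0.23) or 2 (-0.29) or Sora-Treg library 1 (-0.27) or 3 (-0.24).

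Among other receptors of T cell contacts and tetraspanins, 9 of 16 tested were higher and 4 lower (81.2% called, against 59.6% of all genes). Cd2, which binds CD48 on partner cells, was at 384, 366 and 380 CPM in ctrl-Treg libraries, against 810, 783 and 798 CPM with Sora (log2 fold change 1.08 with SE 0.03, adjusted p = 1.38e-19 by edgeR). Alcam, the ligand of CD6, rose by 1.13 and the tetraspanin gene Cd63 by 1.21. The tetraspanin genes Cd82 and Cd81 were lower (log2 fold changes -0.40 and -0.39). Esam, an endothelial and platelet junction protein, had 20, 13 and 14 counts in ctrl-Treg libraries, against 2, 1 and 1 with Sora. Esam reached the filter's minimum in 3 ctrl-Treg and 0 Sora-Treg libraries and so was tested only through the higher group. Its place in the counts of this list supports nothing. Its log2 fold change of -3.30 (SE 0.68) rests on these few counts, is no bound and is given without a p.

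Of the integrin ligands outside the member list, 11 of 18 were tested, 4 were higher and 5 lower (81.8% called, against 59.6% of all genes). Lama5, the laminin α5 chain, which is a ligand of the α3, α6 and α7 pairs, was at 116, 114 and 117 CPM in ctrl-Treg libraries, against 404, 402 and 417 CPM with Sora. The groups were far apart (log2 fold change 1.82 with SE 0.03, adjusted p = 7.36e-23 by edgeR). Lamc1, the laminin γ1 chain, rose by 0.91. Lrrc32, which encodes GARP, the anchor of latent TGF-β on Treg cells, was at 222, 218 and 223 CPM against 436, 421 and 431 CPM, a log2 fold change of 0.96 (SE 0.03, adjusted p = 1.98e-18 by edgeR). Among those lower, Sirpa, the CD47 receptor of myeloid cells, had a log2 fold change of -1.64. Sirpa was at 5.28 and 4.84 CPM in ctrl-Treg libraries 1 and 2, the libraries with more myeloid transcripts, at 1.25 CPM in ctrl-Treg library 3 and at 0.590 to 2.07 CPM in Sora-Treg cells. Without those 2 libraries its log2 fold change was -0.02. Icam5, an ICAM of neurons (log2 fold change -1.58), and the collagen gene Col4a1 (-1.44) had at most 16 counts in any library. Both reached the filter's minimum in 3 ctrl-Treg and 0 Sora-Treg libraries, so they were tested only through the higher group and their values are a description. Their place in the counts of this list supports nothing. The call of Icam5 was lost without ctrl-Treg library 1 (log2 fold change -1.497) or Sora-Treg library 1 (-1.30) or 2 (-1.43), and that of Col4a1 without ctrl-Treg library 1 (-1.51) or 3 (-1.31) or Sora-Treg library 1 (-1.35) or 2 (-1.20).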

How the data were processed

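RNA-seq was analysed in 3 ctrl-Treg and 3 Sora-Treg libraries, grouped by the sample titles. The authors deposited counts of reads by gene symbol, not normalized, and FPKM values for the same 22939 genes. Each deposited FPKM value equalled the count over a single gene length and the library total (largest relative difference 1.64e-06), so it is no separate measurement. The methods of the study name Bowtie2 and GRCm38, while the submitters' processing notes name fastp, HISAT2, HTSeq, R 3.2.0, DESeq2 and GRCm39. Which of them made the counts, the annotation and the use of strand were not given in the sources used here. Different alignment or annotation could move reads between overlapping or related genes.

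Counts were tested by quasi-likelihood in edgeR 4.0.16 (R 4.3.3, TMM scaling, filterByExpr, no covariate, Benjamini-Hochberg adjustment over 13463 genes). The SE of a log2 fold change is the one its F statistic implies. A call needed an adjusted p under 0.05, and over 2-fold a log2 fold change beyond 1. Ratios and shares within libraries used FPKM, with no test. Within each group counts differed by more than sampling noise (chi-square per degree of freedom 3.36 to 5.91), so no library is a copy of another. The biological coefficient of variation was 4.29%.

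Genes given with values per library were all members called over 2-fold, the 12 other tested members with the highest mean FPKM, and tested members with overlapping groups in a family of a member over 2-fold. From each partner list at most 3 higher and 3 lower genes with the largest changes were named, of which 1 is not reported here. The members and lists were chosen with earlier results of these data known. Marker lists of CD8 T cells, neutrophils, mast cells, NK cells, fibroblasts and erythroid cells were also summed. They reached at most 15.1, 2.70, 0.102, 0.0313, 4.22 and 0.157 CPM. Of their tested genes 1 CD8 T cell marker was lower and 1 neutrophil marker (Cxcr2, which passed the filter through the Sora-Treg libraries alone) higher.

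Alternatives were scaling by RLE, by the upper quartile or by library size, a minimum of 1 count in any library or of 1 CPM in 3 libraries as the filter, DESeq2 1.42.0, robust fitting, a test against a 2-fold null, the replicate number as a block, leaving out each library or ctrl-Treg libraries 1 and 2, and limma 3.58.1 on log2(FPKM + 1) or log2(FPKM + 0.1) for genes with a mean FPKM of at least 0.1. Positions and promoters are from RefSeq on GRCm38.p6, and gene overlaps from GENCODE.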

Additional observations from a re-analysis of the deposited data

How the results depend on the processing

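Over 17 alternatives, 14 of 23 named members and 22 of 30 named partner genes kept their direction and their side of the threshold wherever they were tested (Esam in 16, Icam5 and Col4a1 in 14). The 17 include the fit without ctrl-Treg libraries 1 and 2, which enters these counts although it keeps only 1 ctrl-Treg library. The 2 members lower by over 2-fold became 1 with DESeq2, robust fitting, log2(FPKM + 0.1) or the 2-fold null, and 0 with log2(FPKM + 1). Without those 2 libraries, 12 partner genes were lower in place of 24, and Itgam turned to 0.72. Leaving out 1 library at a time, members higher ranged from 13 to 15 and members lower from 6 to 7.

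Scaling by library totals gave 13 members higher and 9 lower in place of 15 and 6, and 23 partner genes higher and 27 lower. Over all genes it gave 2862 higher and 5614 lower, in place of 3994 and 4028. With it Tln1 turned to -0.05 (-0.0488), and with FPKM to -0.0475 and -0.0483, while Itgae, Cd44 and Itga2b were called lower. Itga10, not called, ranged from -0.0636 to 0.0440 as single libraries were left out. The ranges that follow leave out the fit without ctrl-Treg libraries 1 and 2. Over the alternatives the adjusted p ranged from 0.0158 to 0.369 for Tln1, from 5.22e-05 to 0.621 for Itgav and from 0.00151 to 0.113 for Itgb8. It ranged from 3.91e-07 to 0.0426 for Itgal, from 0.00892 to 0.289 for Itga2b and from 3.64e-13 to 0.141 for Sirpa. Without gene length the shares of Itga7 were 3.88% and 20.8%, and those of Itgal 57.6% and 45.8%, in ctrl-Treg and Sora-Treg cells. The cause of these changes was not tested.

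Same-numbered libraries did not deviate together (correlations -0.0438, 0.0591 and 0.0299), so the numbers were not taken as pairs. With the replicate block, 15 members were higher and 6 lower, and 32 partner genes higher and 24 lower. No called named member lost its call under the block. Depth limits what can be said of the 6 members below the filter and of Vcam1 under Sora, with 5 to 11 counts a library.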
